A study of Mus musculus with 12 samples.

Results

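The genes described here carry the insulin signal from the cell surface to glucose uptake: Slc2a4 and Slc2a1, which encode the glucose transporters GLUT4 and GLUT1, the insulin receptor gene Insr, the receptor substrate genes Irs1 and Irs2, Pik3r1, which encodes the p85alpha regulatory subunit of phosphoinositide 3-kinase (PI3K), the kinase gene Akt2, and Tbc1d4, which encodes the Akt substrate AS160. They were chosen by gene symbol, and all 8 were found among the 11022 genes of the deposited count table. A total of 7 of them passed the filter on low counts and were tested among 9378 genes. Akt2 did not pass and is given as counts.

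RNA was measured by MARS-seq, a 3′ method that counts molecular identifiers (UMIs), in 12 libraries of 3T3-L1 cells, a mouse preadipocyte line that turns into adipocytes when given hormonal inducers. There were 4 groups of 3 libraries, and all sequenced cells were of wild-type genotype. In the group called KO CM, cells were differentiated while exposed to medium conditioned by WEP breast cancer cells in which p53 had been knocked out. In the group called WT CM, the medium came from WEP cells wild-type for p53. The group called regular was differentiated with no conditioned medium, and the group called undifferentiated was taken before differentiation. For the 3 differentiated groups, induction began 2 days past confluence and lasted 2 days, with insulin at 1 µg/mL, rosiglitazone at 2 µM, dexamethasone at 1 µM and isobutylmethylxanthine at 0.5 mM. A further 2 days in insulin at 1 µg/mL followed, and then maintenance medium. The conditioned medium replaced an equal part of the medium throughout, so insulin and the other inducers were diluted in KO CM and WT CM and not in regular cells, and the effects of dilution and of the conditioned medium cannot be told apart. Serum also changed with differentiation, being 10% calf serum in undifferentiated cells and 10% fetal bovine serum in the others. The study asked how p53-deficient breast cancer cells affect adipocyte differentiation, which KO CM against WT CM addresses most directly.

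In fat cells, insulin binds its receptor, a tyrosine kinase, which phosphorylates the adaptor proteins IRS1 and IRS2. These recruit PI3K through its p85 subunit, the lipid made by PI3K activates Akt, and Akt2 phosphorylates AS160, a Rab GTPase-activating protein that otherwise holds GLUT4 vesicles inside the cell. GLUT4 then moves to the plasma membrane and glucose enters, whereas GLUT1 sits largely at the surface and carries basal uptake. In 3T3-L1 cells, appearance of GLUT4 is a classical sign of the mature adipocyte. What was measured here is RNA, not protein, phosphorylation or glucose uptake.

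Total UMIs per library ranged over 987496 to 1376688 in KO CM, 1551876 to 2278126 in WT CM, 1101307 to 2589045 in regular and 1289754 to 1722617 in undifferentiated cells. Levels are CPM, UMIs scaled to a common library size by edgeR, given as mean ± SD of 3 libraries. Differences are log2 fold changes ± SE from edgeR's quasi-likelihood test, and a gene is called where its Benjamini-Hochberg adjusted p over all tested genes was under 0.05. The adipocyte label held in the data: Adipoq, which encodes the fat cell hormone adiponectin, averaged 1701 ± 138 CPM in KO CM, 3255 ± 71.5 CPM in WT CM, 6633 ± 256 CPM in regular and 5.32 ± 2.90 CPM in undifferentiated cells. The summed level of the 21 adipocyte markers in the table other than Slc2a4 was 12360 to 14043 CPM in KO CM, 24981 to 25036 CPM in WT CM, 40767 to 43079 CPM in regular and 264 to 296 CPM in undifferentiated cells. That of 19 preadipocyte and fibroblast markers was 32639 to 34910 CPM in KO CM, 25737 to 26901 CPM in WT CM, 11907 to 12387 CPM in regular and 24330 to 26253 CPM in undifferentiated cells. Both sums therefore move with the groups compared below, and their part in the results on single genes was not tested. The markers of any 1 other cell type summed to at most 86.8 CPM in any library. The 4 macrophage markers in the table, of 14 listed, summed to 14.5 to 30.6 CPM in KO CM, 13.6 to 14.2 CPM in WT CM, 10.1 to 13.6 CPM in regular and 16.4 to 17.7 CPM in undifferentiated cells. The 5 epithelial markers in the table, of 14 listed, summed to 22.3 to 29.7 CPM in KO CM, 25.6 to 36.8 CPM in WT CM, 46.6 to 62.6 CPM in regular and 6.38 to 9.65 CPM in undifferentiated cells. The 4 skeletal muscle markers in the table, of 12 listed, summed to 69.8 to 76.8 CPM in KO CM, 63.1 to 78.4 CPM in WT CM, 57.8 to 86.8 CPM in regular and 33.9 to 44.6 CPM in undifferentiated cells. Of the 3 of these that were tested, the troponin genes Tnnt3 and Tnni2 were higher over regular in KO CM (3.18 and 3.09) and in WT CM (2.14 and 3.59), and Des was not called. The 1 endothelial marker in the table, of 10 listed, was Egfl7, at 3.96 to 7.06 CPM in KO CM, 4.77 to 7.73 CPM in WT CM, 11.9 to 14.0 CPM in regular and 2.13 to 10.8 CPM in undifferentiated cells. The part of these markers in the results was not tested either. In these bulk libraries, fewer adipocytes and less RNA per adipocyte cannot be told apart. Nothing in the labels says that replicates were separate cultures, so p-values reflect library-to-library spread that may be technical.

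Against regular differentiation, the 7 tested genes did not move as one: GLUT4 RNA had the lowest log2 fold change of them in both conditioned media, most of the others were lower or not called, and GLUT1 RNA was higher. In KO CM, 1 of the 7 was higher and 5 were lower, where 43.2% of all tested genes were called, 22.2% higher and 21% lower. In WT CM, 1 was higher and 3 were lower, where 32.6% of all tested genes were called, 17.2% higher and 15.4% lower. The median log2 fold change of the 7 genes was -0.81 in KO CM over regular and -0.21 in WT CM over regular, where the medians of all tested genes were -0.00062 and 0.0060. The WT CM median includes Insr (1.00, not called), which passed the filter on low counts through WT CM, so no weight is put on it. These comparisons share the regular libraries.

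Between the conditioned media, 4 of the 7 genes were lower in KO CM than in WT CM and 0 were higher, where 12.5% of all tested genes were called, 6.62% lower and 5.86% higher. The 4 were Slc2a4, Irs1, Pik3r1 and Tbc1d4, and the median over the 7 was -0.90, against 0.0058 over all genes. That median includes Insr (-1.41, not called), which passed the filter on low counts through WT CM, so no weight is put on it. The count of 4 rested on 1 library: without KO CM replicate 3, 1 of the 7, Slc2a4, was called. The number of calls over all genes was then 756 instead of 1171. The log2 fold changes of the other 3 were then -0.77 for Irs1, -0.61 for Pik3r1 and -0.79 for Tbc1d4, with adjusted p of 0.0752, 0.0831 and 0.117.

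**Figure D1:**
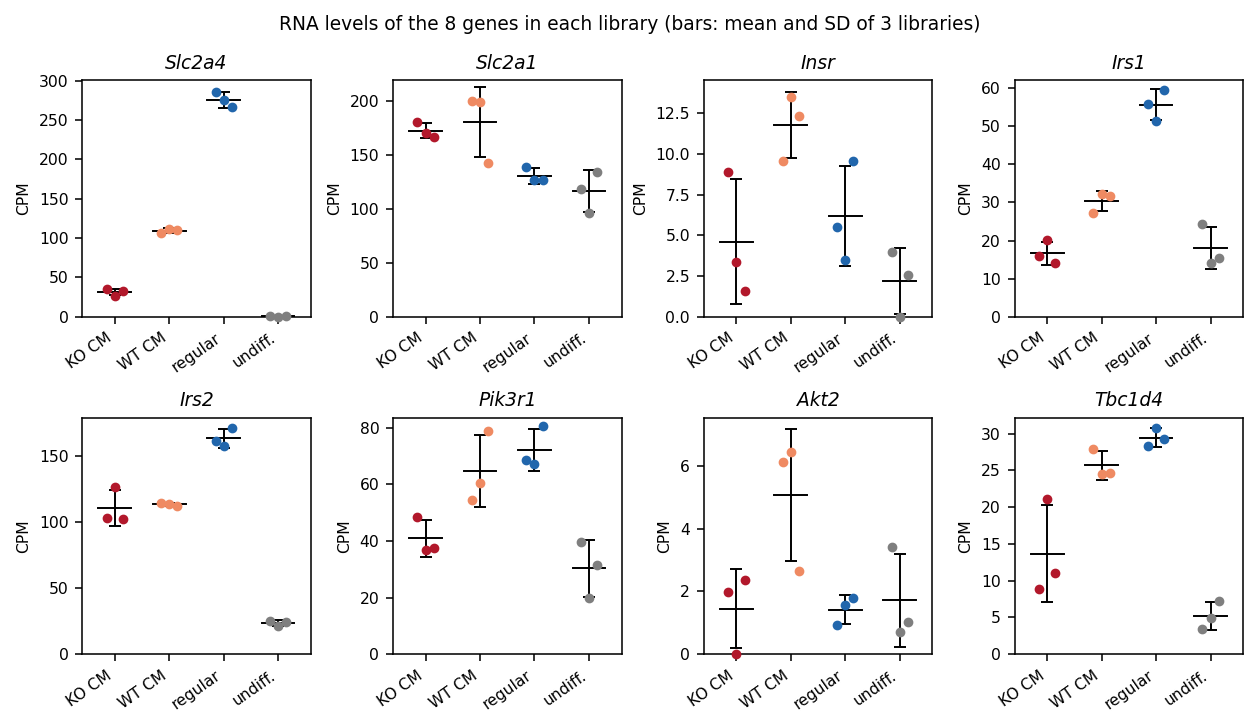
RNA level in CPM (vertical axis, from 0) of each of the 8 genes in each library of KO CM, WT CM, regular and undifferentiated cells; points are libraries, bars the mean and SD of 3 libraries. Slc2a4 is lower in KO CM than in WT CM and lower in WT CM than in regular cells, with no overlap of groups, Slc2a1 is highest in the conditioned media, and Insr and Akt2 lie on few counts.

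Slc2a4 encodes GLUT4, the transporter that insulin moves to the cell surface in fat and muscle. It stood at 34.7, 26.7 and 33.0 CPM in the KO CM libraries, at 106, 112 and 110.2 CPM in WT CM, at 286, 275 and 266 CPM in regular cells, and at 0.567, 0 and 0.514 CPM in undifferentiated cells. No groups overlapped, and libraries within a group lay close together. It was 8.66-fold lower in KO CM than in regular cells (log2 fold change -3.11 ± 0.13, adjusted p = 1.05e-24). In WT CM it was 2.51-fold lower than in regular cells (-1.33 ± 0.09, adjusted p = 8.87e-16). KO CM was 3.45-fold lower than WT CM (-1.79 ± 0.14, adjusted p = 4.86e-13). The order of levels was therefore regular, WT CM, KO CM and undifferentiated, with every neighbour called different.

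Undifferentiated cells held 2 UMIs of Slc2a4 in all, so the size of the rise with differentiation is known only loosely. The ratio of summed counts, scaled for library size, was 81.2 for KO CM over undifferentiated cells (101 UMIs against 2, exact 95% interval 21.9 to 680), 281 for WT CM (580 UMIs against 2, 77.3 to 2323) and 702 for regular cells (1464 UMIs against 2, 194 to 5804). These intervals cover counting error only. Even in KO CM, Slc2a4 RNA thus stood well above the undifferentiated level.

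Among all 9378 tested genes, Slc2a4 had the 35th lowest log2 fold change in KO CM over regular, the 96th lowest in WT CM over regular and the 36th lowest in KO CM over WT CM. It also lay near the low end of the 21 tested adipocyte markers, of which it is one. Only Cd36, which encodes a fatty acid transporter, fell further among them in KO CM over WT CM (-1.88), and 2 and 5 markers had lower values than Slc2a4 in KO CM and WT CM over regular. Leaving out any 1 library kept its log2 fold change between -3.18 and -3.03 in KO CM over regular, between -1.35 and -1.31 in WT CM over regular and between -1.85 and -1.70 in KO CM over WT CM. In the annotation (GENCODE M21, GRCm38) the gene lies at chr11:69942539-69948188 on the minus strand and overlaps no other gene.

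Slc2a1 encodes GLUT1, the transporter of basal glucose uptake that most cells carry. It was the only one of the 7 tested genes called higher in conditioned medium than in regular cells. Its levels were 180.3, 170.4 and 167 CPM in KO CM, 199.7, 199.6 and 143 CPM in WT CM, 139, 127 and 126 CPM in regular cells, and 119, 96.4 and 135 CPM in undifferentiated cells. Every library of both conditioned media lay above every regular library, although WT CM replicate 3 was close to them. It rose by 0.41 ± 0.12 on the log2 scale in KO CM over regular (1.33-fold, adjusted p = 0.00606) and by 0.46 ± 0.12 in WT CM over regular (1.38-fold, adjusted p = 0.00162). KO CM and WT CM were not called different, at -0.05 ± 0.12 (95% interval -0.29 to 0.18, adjusted p = 0.848). Nor were regular and undifferentiated cells, at 0.15 ± 0.12 (adjusted p = 0.306), a value whose sign turned (-0.0179) when libraries were scaled by their total counts. Over undifferentiated cells it was higher in KO CM by 0.55 ± 0.12 (adjusted p = 0.000303) and in WT CM by 0.61 ± 0.12 (adjusted p = 3.47e-05), of which the KO CM value fell to 0.27 (adjusted p = 0.0566) with total counts.

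The Slc2a1 promoter is shown because this gene moved against the others. It comes from RefSeq (GRCm38.p6, chr4:119108495-119108794, plus strand) and runs 5′ to 3′ over the 250 bases before and the 50 bases after the annotated start. Capitals mark matches to the motifs searched on both strands: the E-box CACGTG, the core of an insulin response element TGTTTTG, the forkhead motif TGTTTAC (in 3.65% of windows), the TATA box TATAAA, the C/EBP-type motif TTGCNNAA (10.8%) and the PPAR direct repeat (0.0396%). The GC box GGGCGG and the CCAAT box, held by 35.7% and 37.4% of windows, were searched too and are not capitalised.
Slc2a1: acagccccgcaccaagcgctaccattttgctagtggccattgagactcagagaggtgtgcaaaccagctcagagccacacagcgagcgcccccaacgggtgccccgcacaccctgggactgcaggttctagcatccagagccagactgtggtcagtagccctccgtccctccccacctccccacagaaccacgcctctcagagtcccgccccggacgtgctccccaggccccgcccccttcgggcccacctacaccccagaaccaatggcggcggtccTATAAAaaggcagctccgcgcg
The one capitalised match was TATAAA, 28 bases past the RefSeq start, a string that 13.6% of 32851 promoter windows of this length hold. This distance depends on the annotation: the RefSeq start lies at 119108745 and the 5′ end of the GENCODE gene at 119108711. A match is only a description of the letters. The annotated gene spans chr4:119108711-119137983 on the plus strand, and the antisense gene Gm12868 overlaps its 3′ end, where these reads fall. The sources used here do not give whether strand entered the counting, so their reads cannot be separated.

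The 2 transporters moved apart, so the balance between them shifted with the group. Of the UMIs assigned to either transporter gene, Slc2a4 made up 15.4% ± 1.6 in KO CM, 38.1% ± 4.8 in WT CM and 67.8% ± 0.6 in regular cells (SD, n = 3). Its share thus stood lowest in KO CM and highest in regular cells, and in undifferentiated cells it rested on the 2 UMIs given above. The log2 ratio of Slc2a4 to Slc2a1 counts averaged -2.45 ± 0.18 in KO CM, -0.70 ± 0.29 in WT CM and 1.08 ± 0.04 in regular cells. It differed by -3.52 between KO CM and regular cells, by -1.78 between WT CM and regular cells, and by -1.74 between KO CM and WT CM. In each of these the libraries of the groups did not overlap, and the exact two-sided permutation p was 0.1, the smallest that 3 libraries against 3 allow. The share was used only to compare groups, not the abundance of the 2 transcripts.

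**Figure D2:**
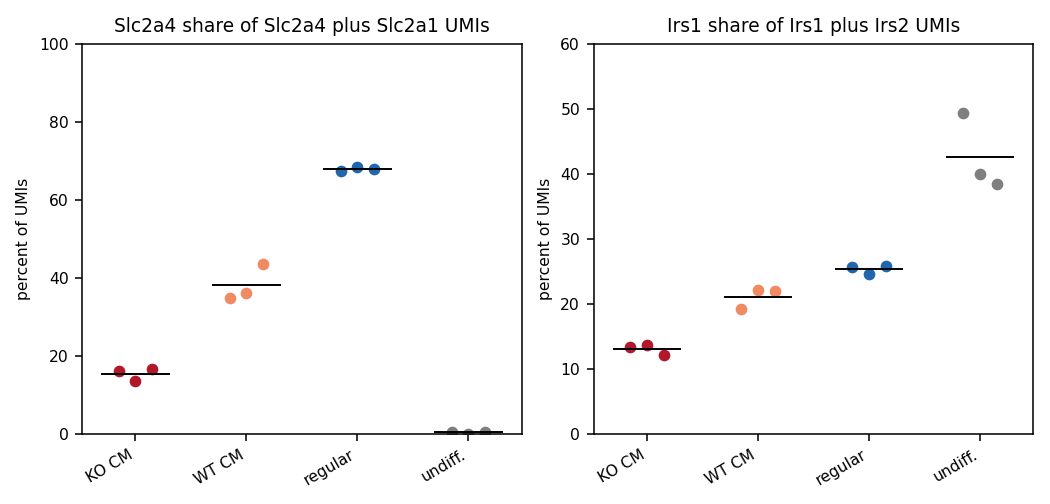
Left, Slc2a4 as percent of Slc2a4 plus Slc2a1 UMIs; right, Irs1 as percent of Irs1 plus Irs2 UMIs; points are libraries of KO CM, WT CM, regular and undifferentiated cells, and lines are group means. The Slc2a4 share averages 15.4% in KO CM, 38.1% in WT CM and 67.8% in regular cells, and the Irs1 share is lowest in KO CM and highest in undifferentiated cells.

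Insr, the insulin receptor gene, was sparsely counted. Its counts were 9, 3 and 2 UMIs in KO CM, 14, 21 and 28 in WT CM, 6, 9 and 16 in regular cells and 7, 0 and 5 in undifferentiated cells. It passed the filter on low counts through WT CM, the only group with 14 or more UMIs in all 3 libraries. Mean levels were 4.61 ± 3.83 CPM in KO CM, 11.8 ± 2.04 CPM in WT CM, 6.18 ± 3.08 CPM in regular and 2.18 ± 2.01 CPM in undifferentiated cells. WT CM was highest, though its lowest library and the highest regular library both stood at 9.54 CPM when rounded.

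No difference in Insr between the differentiated groups passed the threshold. The log2 fold change was -0.41 ± 0.57 in KO CM over regular (adjusted p = 0.594), 1.00 ± 0.41 in WT CM over regular (adjusted p = 0.0573) and -1.41 ± 0.50 in KO CM over WT CM (adjusted p = 0.0555), whose 95% interval was -2.38 to -0.44. Each of the values that involve WT CM passed in 5 of the alternatives run, which were not all the same for both. KO CM over WT CM moved to -2.33 without KO CM replicate 1, and WT CM over regular to 1.498 without regular replicate 3 (adjusted p = 0.0105 and 0.0184). Because Insr entered the test through its counts in WT CM, no weight is put on values that set WT CM against another group. Over undifferentiated cells, the log2 fold change stood at 0.90 ± 0.68 in KO CM (adjusted p = 0.300), 2.31 ± 0.50 in WT CM and 1.31 ± 0.57 in regular cells (adjusted p = 0.0492). The call in regular cells was lost in 11 alternatives, for example with DESeq2 (adjusted p = 0.0721) and without undifferentiated replicate 2 (0.85, adjusted p = 0.191).

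Irs1 and Irs2 encode the adaptors that the receptor phosphorylates, and both rose with regular differentiation and were lower in both conditioned media than in regular cells. They parted between the media: Irs1 was lower in KO CM than in WT CM, and Irs2 was not called different. Irs1 stood at 15.9, 20.0 and 14.1 CPM in KO CM, at 27.3, 32.2 and 31.7 CPM in WT CM, at 55.8, 51.5 and 59.6 CPM in regular cells and at 24.4, 14.2 and 15.4 CPM in undifferentiated cells. The KO CM libraries lay within or near the range of the undifferentiated ones. Irs2 stood at 103, 127 and 103 CPM in KO CM, at 114, 114 and 112 CPM in WT CM, at 162, 157 and 172 CPM in regular cells and at 25.0, 21.3 and 24.7 CPM in undifferentiated cells. All conditioned-medium libraries of Irs2 lay below the regular ones and far above the undifferentiated ones.

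Irs1 was 3.36-fold lower in KO CM than in regular cells (log2 fold change -1.75 ± 0.22, adjusted p = 3.43e-09) and 1.81-fold lower in WT CM (-0.85 ± 0.17, adjusted p = 8.14e-05). KO CM was 1.86-fold lower than WT CM (-0.90 ± 0.24, adjusted p = 0.00662), a call that rests on KO CM replicate 3 as given above. Regular cells were 3.04-fold above undifferentiated cells (1.60 ± 0.19, adjusted p = 6.12e-10) and WT CM 1.68-fold above them (0.75 ± 0.21, adjusted p = 0.00225). KO CM over undifferentiated cells stood at -0.15 ± 0.26 (95% interval -0.65 to 0.36, adjusted p = 0.681), so no rise of Irs1 was detectable there, and the sign of this value turned without undifferentiated replicate 1 (0.076). In order of level, regular came before WT CM, and WT CM before undifferentiated cells and KO CM, which were not called different.

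Irs2 was 1.48-fold lower in KO CM than in regular cells (-0.57 ± 0.11, adjusted p = 2.34e-05) and 1.44-fold lower in WT CM (-0.53 ± 0.10, adjusted p = 3.48e-05). Between KO CM and WT CM the difference was -0.04 ± 0.11 (95% interval -0.26 to 0.18, adjusted p = 0.876). Over undifferentiated cells Irs2 was 4.62-fold higher in KO CM (2.21 ± 0.14), 4.76-fold higher in WT CM (2.25 ± 0.13) and 6.85-fold higher in regular cells (2.78 ± 0.13), with adjusted p of 1.67e-17, 5.95e-19 and 3.41e-23. In order of level, regular came first, WT CM and KO CM were not called different, and undifferentiated cells came last.

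The UMI share of Irs1 within Irs1 and Irs2 together shifted accordingly, and it was used only to compare groups, not transcript abundance. Irs1 made up 13.0% ± 0.8 of the UMIs of Irs1 and Irs2 together in KO CM, 21.1% ± 1.6 in WT CM, 25.3% ± 0.6 in regular cells and 42.6% ± 5.9 in undifferentiated cells (SD, n = 3). The groups did not overlap in any pair. The log2 ratio of Irs1 to Irs2 differed by -1.15 between KO CM and regular cells, by -0.34 between WT CM and regular cells, by -0.81 between KO CM and WT CM and by -1.13 between regular and undifferentiated cells, each with an exact two-sided permutation p of 0.1, the smallest possible here.

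The promoters of Irs1 and Irs2 are shown because both genes rose with regular differentiation and their windows share short runs of sequence. In KO CM, only Irs2 was called above undifferentiated cells. The shared runs overlap each other in both windows, and how often promoters share such runs was not tested. Both promoters are RefSeq windows on GRCm38.p6, on the minus strand, at chr1:82291390-82291689 for Irs1 and chr8:11008880-11009179 for Irs2, with capitals as for Slc2a1.
Irs1: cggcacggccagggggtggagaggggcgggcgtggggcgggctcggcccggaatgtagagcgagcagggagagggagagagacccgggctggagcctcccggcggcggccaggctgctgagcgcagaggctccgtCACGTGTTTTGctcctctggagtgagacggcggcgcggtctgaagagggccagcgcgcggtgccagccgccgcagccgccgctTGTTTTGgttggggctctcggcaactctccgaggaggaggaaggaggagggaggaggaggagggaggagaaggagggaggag
Irs2: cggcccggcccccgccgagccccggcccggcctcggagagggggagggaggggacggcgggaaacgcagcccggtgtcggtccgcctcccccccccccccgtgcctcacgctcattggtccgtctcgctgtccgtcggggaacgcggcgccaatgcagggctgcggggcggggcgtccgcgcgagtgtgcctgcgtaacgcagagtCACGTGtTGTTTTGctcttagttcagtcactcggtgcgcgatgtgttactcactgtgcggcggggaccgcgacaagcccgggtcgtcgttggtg
Both hold an E-box CACGTG followed closely by TGTTTTG on the same strand. In Irs1, CACGTG begins 115 bases before the annotated start and TGTTTTG 111 bases before it, so the 2 matches overlap, and another TGTTTTG begins 32 bases before it. In Irs2 they begin 44 and 37 bases before the RefSeq start. These distances depend on the annotation: the RefSeq start lies 471 bases upstream of the 5′ end of the GENCODE gene for Irs2 and 23 bases upstream for Irs1, and the last 20 bases of the Irs2 window were found in no GENCODE transcript of the gene. CACGTG occurs in 7.15% and TGTTTTG in 6.28% of the 32851 promoter windows, and neither TGTTTAC nor the other capitalised motifs were found in these 2 windows. The 10-base runs GTCACGTGTT and TGTTTTGCTC occur in both promoters, and each is found in 25 of all windows (0.0761%). E-boxes are known as sites of basic helix-loop-helix proteins such as SREBP1 and TFE3, and TGTTTTG elements as sites of FoxO factors, but binding was not measured here. The annotated genes span chr1:82233101-82291416 (Irs1) and chr8:10984681-11008458 (Irs2), both on the minus strand; the antisense gene Gm9747 overlaps the 3′ end of Irs1, and its reads cannot be separated.

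Pik3r1 encodes p85alpha, the subunit through which PI3K docks on the IRS proteins. It stood at 48.5, 36.7 and 37.7 CPM in KO CM, at 54.5, 60.5 and 78.9 CPM in WT CM, at 68.5, 67.0 and 80.5 CPM in regular cells and at 39.7, 19.8 and 31.4 CPM in undifferentiated cells. All KO CM libraries lay below all WT CM and regular ones, and WT CM overlapped regular cells. It was 1.76-fold lower in KO CM than in regular cells (-0.81 ± 0.19, adjusted p = 0.000367) and 1.61-fold lower than in WT CM (-0.68 ± 0.19, adjusted p = 0.00999). The call between the conditioned media was lost without KO CM replicate 2 (adjusted p = 0.0566), KO CM replicate 3 (0.0831) or WT CM replicate 3 (0.110). WT CM over regular stood at -0.13 ± 0.16 (95% interval -0.44 to 0.18, adjusted p = 0.577). Over undifferentiated cells the log2 fold change was 0.41 ± 0.21 in KO CM (adjusted p = 0.118), 1.09 ± 0.18 in WT CM (adjusted p = 2.1e-06) and 1.22 ± 0.18 in regular cells (adjusted p = 1.43e-07). Regular and WT CM thus headed the order without a called difference, and KO CM and undifferentiated cells followed, also without one.

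Akt2 encodes the Akt isoform that is known for insulin-driven glucose uptake in fat cells. Its RNA was at the limit of detection, with 2, 0 and 3 UMIs in KO CM, 9, 10 and 6 in WT CM, 1, 4 and 3 in regular cells and 6, 1 and 2 in undifferentiated cells. Over the 3 libraries of a group this gave 1.57 CPM in KO CM (exact Poisson 95% interval 0.510 to 3.67), 4.73 CPM in WT CM (3.06 to 6.98), 1.499 CPM in regular cells (0.647 to 2.95) and 1.76 CPM in undifferentiated cells (0.804 to 3.34), intervals that cover counting error only. WT CM lay highest. Without the filter on low counts, edgeR gave WT CM over regular a log2 fold change of 1.64 ± 0.63 (adjusted p = 0.0434) and DESeq2 an adjusted p of 0.144, and KO CM over WT CM stood at -1.58 ± 0.72 (edgeR, adjusted p = 0.177). At this depth no difference between KO CM and regular cells was detectable.

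The other ubiquitous Akt gene was well counted. Akt1, named after its values were seen, averaged 457 ± 32.1 CPM in KO CM, 402 ± 49.3 CPM in WT CM, 320.2 ± 36.7 CPM in regular and 516 ± 30.3 CPM in undifferentiated cells. It rose by 0.51 ± 0.10 in KO CM over regular (adjusted p = 2.09e-05) and by 0.32 ± 0.09 in WT CM over regular (adjusted p = 0.00618). The call in WT CM was lost without WT CM replicate 1 (adjusted p = 0.0767), without regular replicate 1 (0.0915) and at equal depth (0.258).

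Tbc1d4 encodes AS160, the Akt substrate that restrains GLUT4 vesicles until it is phosphorylated. It stood at 8.92, 21.2 and 10.98 CPM in KO CM, at 27.9, 24.5 and 24.7 CPM in WT CM, at 28.3, 30.8 and 29.2 CPM in regular cells and at 3.40, 4.96 and 7.20 CPM in undifferentiated cells. KO CM lay below the other differentiated groups and above undifferentiated cells in every library, with replicate 2 well above the other two. It was 2.23-fold lower in KO CM than in regular cells (-1.16 ± 0.26, adjusted p = 0.000283) and 1.92-fold lower than in WT CM (-0.94 ± 0.27, adjusted p = 0.0125). The difference from WT CM was not called by DESeq2 (adjusted p = 0.0655), nor without KO CM replicate 1 (0.102) or 3 (0.117), and in the authors' deposited table its adjusted p was 0.0740. WT CM over regular stood at -0.21 ± 0.21 (adjusted p = 0.465).

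With differentiation Tbc1d4 was 5.57-fold higher in regular than in undifferentiated cells (2.48 ± 0.28, adjusted p = 2.27e-10) and 4.80-fold higher in WT CM (2.26 ± 0.29, adjusted p = 6.72e-09). In KO CM it was 2.50-fold higher than in undifferentiated cells (1.32 ± 0.36, adjusted p = 0.00256), a call lost without KO CM replicate 2 (0.93, adjusted p = 0.0658). The order of levels was regular and WT CM, not called different, then KO CM, then undifferentiated cells. The gene spans chr14:101442360-101609191 on the minus strand, and Pik3r1 spans chr13:101680563-101768217 on the minus strand.

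**Figure D3:**
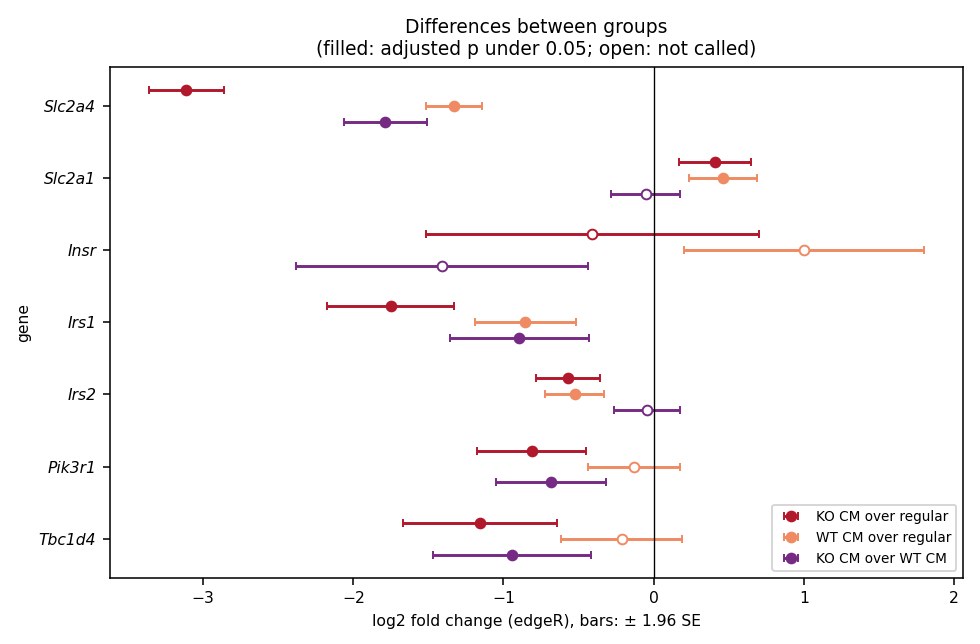
Log2 fold changes (horizontal axis) of the 7 tested genes in KO CM over regular, WT CM over regular and KO CM over WT CM; bars are 95% intervals, filled points have an adjusted p under 0.05 and open points do not. Slc2a4 lies furthest left at -3.11, -1.33 and -1.79, Slc2a1 is the one called to the right, and Pik3r1 and Tbc1d4 are called in KO CM and not in WT CM over regular.

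Against undifferentiated cells, 6 of the 7 tested genes were higher in regular cells and 0 were lower, where 57.6% of all tested genes were called, 29.6% higher and 28% lower. Of the 6, the call for Insr was lost in the alternatives given above. In KO CM, 4 of the 7 were higher (Slc2a4, Slc2a1, Irs2 and Tbc1d4) where 43.7% of all tested genes were called, 26% higher. In WT CM the 6 genes other than Insr were all higher, where 48.6% of all tested genes were called, 27.9% higher. Insr is left out of that count because it passed the filter through WT CM. The medians over the 7 genes, Insr included, were 0.90 in KO CM, 2.25 in WT CM and 1.60 in regular cells over undifferentiated cells, where those of all tested genes were 0.079, 0.058 and -0.011. The KO CM median is the value of Insr itself, which was not called there. Because Insr passed the filter through WT CM, no weight is put on these medians or on their order. These comparisons share the undifferentiated libraries. Other gene lists of the pathway moved unevenly in regular over undifferentiated cells. Of 10 other receptor and adaptor genes, 4 were higher and 3 lower, but at equal depth 2 and 2. Of 21 brakes on insulin signalling, 7 were higher and 8 lower. Of 14 other PI3K and Akt genes, 4 were higher and 6 lower, but at equal depth 0 and 4. Of 33 other GLUT4 vesicle genes, 13 were higher and 9 lower, but with DESeq2 8 and 6. Among 22 downstream effectors, 14 were higher and 3 lower, and among 30 genes of the first steps of glucose use 23 and 3.

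The rest of the pathway was read from gene lists that exclude the 8 genes. Of all tested genes, 22.2% were higher and 21% lower in KO CM over regular, 17.2% higher and 15.4% lower in WT CM over regular, and 5.86% higher and 6.62% lower in KO CM over WT CM. Of 10 other tested receptor and adaptor genes, 4 were higher and 2 lower in KO CM over regular, 3 higher and 2 lower in WT CM over regular, and 1 higher and 2 lower in KO CM over WT CM, with medians of 0.03, 0.11 and 0.11. Without KO CM replicate 3, 1 of the 10 was called between the media, and it was lower. Sh2b2, which encodes the receptor adaptor APS, fell in every one of these comparisons. It averaged 68.5 ± 11.5 CPM in KO CM, 129 ± 13.2 CPM in WT CM, 186 ± 12.7 CPM in regular and 8.54 ± 3.73 CPM in undifferentiated cells. It fell by 1.46 ± 0.13 in KO CM and by 0.53 ± 0.11 in WT CM over regular, and by 0.92 ± 0.13 in KO CM over WT CM (adjusted p = 3.48e-13, 9.27e-05 and 1.55e-06). The receptors of the insulin-like growth factors went the other way: Igf1r, a signalling receptor, averaged 39.8 ± 9.03 CPM in KO CM, 30.2 ± 6.16 CPM in WT CM and 11.5 ± 2.45 CPM in regular cells, a rise of 1.74 ± 0.24 in KO CM and 1.33 ± 0.23 in WT CM over regular (adjusted p = 3.13e-08 and 6.69e-06). Igf2r, the clearance receptor for IGF2, rose by 1.52 ± 0.11 in KO CM and 1.15 ± 0.11 in WT CM over regular (adjusted p = 3.00e-15 and 1.26e-11).

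Of 14 other tested PI3K and Akt genes, 4 were higher and 1 lower in KO CM over regular, and 5 were higher and 0 lower in WT CM over regular, where 43.2% and 32.6% of all tested genes were called in either direction. In KO CM over WT CM 0 were higher and 1 was lower, where 12.5% were called. The medians were 0.23, 0.31 and 0.02. In KO CM over regular, 2 were called with DESeq2, at equal depth and without KO CM replicate 3, and 3 without regular replicate 3, in each case all higher. In WT CM over regular, 1 was called at equal depth and 3 without WT CM replicate 1. The call between the media was lost with DESeq2, at equal depth and without KO CM replicate 1, KO CM replicate 3 or WT CM replicate 1.

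Among 21 tested brakes on insulin signalling, 8 were higher and 3 lower in KO CM over regular, 5 higher and 3 lower in WT CM over regular, and 2 higher and 1 lower in KO CM over WT CM. Shares of all tested genes were 22.2% higher and 21% lower in KO CM and 17.2% and 15.4% in WT CM over regular. The counts in WT CM over regular are close to these. In KO CM over WT CM, 5.86% of all tested genes were higher and 6.62% lower. Socs3, an inhibitor that binds cytokine and insulin receptors and is induced by STAT3, had the largest rise of the list in both conditioned media over regular, and Grb14 in KO CM over WT CM. It stood at 394, 569 and 528 CPM in KO CM, at 340.1, 366 and 354 CPM in WT CM, at 22.8, 31.2 and 39.4 CPM in regular cells and at 46.5, 31.2 and 38.0 CPM in undifferentiated cells. Both conditioned media lay far above every library grown without them. Socs3 rose 15.6-fold in KO CM over regular (3.96 ± 0.15, adjusted p = 1.59e-16), 11.1-fold in WT CM over regular (3.47 ± 0.15, adjusted p = 5.03e-15) and 1.41-fold in KO CM over WT CM (0.49 ± 0.12, adjusted p = 0.00663).

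Grb14, an adaptor that blocks the receptor kinase, averaged 58.1 ± 8.63 CPM in KO CM, 32.8 ± 2.32 CPM in WT CM, 12.1 ± 7.83 CPM in regular and 47.9 ± 8.07 CPM in undifferentiated cells. It rose by 2.13 ± 0.24 in KO CM and by 1.31 ± 0.25 in WT CM over regular (adjusted p = 3.13e-09 and 5.73e-05), and by 0.82 ± 0.21 in KO CM over WT CM (adjusted p = 0.00630). Its KO CM libraries overlapped the undifferentiated ones and lay above all WT CM and regular ones. Trib3, a pseudokinase reported to bind Akt, fell instead by 1.34 ± 0.11 in KO CM and by 0.95 ± 0.10 in WT CM over regular (adjusted p = 1.89e-14 and 4.87e-11).

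**Figure D4:**
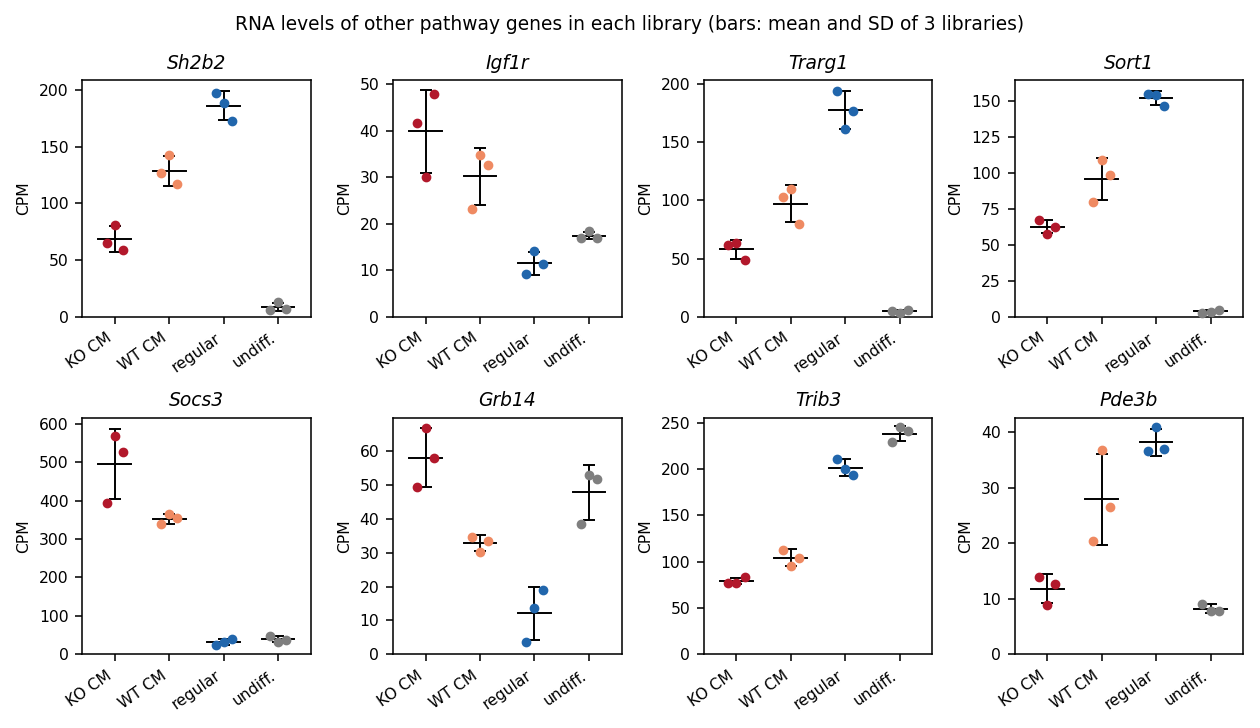
RNA level in CPM (vertical axis, from 0) of 8 other pathway genes in each library of KO CM, WT CM, regular and undifferentiated cells; points are libraries, bars the mean and SD of 3 libraries. Sh2b2, Trarg1 and Sort1 are lowest in KO CM among the differentiated groups, Socs3 stands at 340.1 CPM or more in every conditioned-medium library and at 46.5 CPM or less elsewhere, and Grb14 and Trib3 run in opposite directions across the 3 differentiated groups.

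Of 33 tested GLUT4 vesicle genes besides Tbc1d4, 9 were higher and 8 lower in KO CM over regular, 6 higher and 6 lower in WT CM over regular, and 2 higher and 5 lower in KO CM over WT CM. The counts over regular lie near what the shares of all tested genes would give. Those shares were 22.2% higher and 21% lower in KO CM and 17.2% and 15.4% in WT CM. In KO CM over WT CM, 5.86% of all tested genes were higher and 6.62% lower. The vesicle genes that fell included Trarg1, which encodes a GLUT4 vesicle protein of fat cells, and Sort1, whose product sortilin sorts cargo into these vesicles. Trarg1 averaged 57.8 ± 8.03 CPM in KO CM, 97.2 ± 15.8 CPM in WT CM, 177 ± 16.2 CPM in regular and 4.58 ± 1.06 CPM in undifferentiated cells, and fell by 1.62 ± 0.13 in KO CM and by 0.87 ± 0.11 in WT CM over regular, and by 0.75 ± 0.14 in KO CM over WT CM (adjusted p = 4.79e-14, 2.25e-08 and 0.000177). Sort1 fell by 1.27 ± 0.13, 0.66 ± 0.11 and 0.61 ± 0.13 in the same comparisons (adjusted p = 1.45e-11, 3.59e-06 and 0.00103). The 2 that were higher in KO CM than in WT CM were Lrp1, a large endocytic receptor found in GLUT4 vesicles, and Flot1, a lipid raft protein, by 0.44 ± 0.09 and 0.48 ± 0.09 (adjusted p = 0.000210 and 6.27e-05). The medians over the 33 genes were 0.06, 0.08 and 0.07.

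Of the other hexose transporters, Slc2a8 and Slc2a10 passed the filter. Slc2a8 averaged 40.9 ± 6.65 CPM in KO CM, 45.4 ± 6.27 CPM in WT CM, 44.5 ± 3.44 CPM in regular and 21.0 ± 2.49 CPM in undifferentiated cells, and was not called between the differentiated groups (adjusted p = 0.669, 0.886 and 0.702 for KO CM over regular, WT CM over regular and KO CM over WT CM). Slc2a10 was higher in KO CM than in regular cells by 0.98 ± 0.35 (adjusted p = 0.0198), at 40 UMIs in KO CM against 34 in regular cells before scaling for library size. That call was lost with DESeq2 (adjusted p = 0.0722), without KO CM replicate 2 (0.155) and without regular replicate 2 (0.0660). The call in WT CM over regular (0.83 ± 0.32, adjusted p = 0.0424) was lost in most alternatives, among them RLE size factors (0.0520) and without regular replicate 2 (0.131).

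Downstream of Akt, 1 of 22 tested effectors was higher and 9 were lower in KO CM over regular, 0 higher and 8 lower in WT CM over regular, and 0 higher and 4 lower in KO CM over WT CM. Of all tested genes, 21%, 15.4% and 6.62% were lower in these comparisons and 22.2%, 17.2% and 5.86% higher. Lpin1, which encodes the phosphatidate phosphatase lipin-1, had the lowest log2 fold change of the list in each comparison. It averaged 47.3 ± 11.4 CPM in KO CM, 112 ± 5.35 CPM in WT CM and 212 ± 9.95 CPM in regular cells, a fall of 2.19 ± 0.14 in KO CM and of 0.92 ± 0.11 in WT CM over regular and of 1.28 ± 0.15 in KO CM over WT CM (adjusted p = 7.39e-17, 1.13e-08 and 4.57e-08). Pde3b, the phosphodiesterase through which insulin restrains lipolysis, averaged 11.8 ± 2.57 CPM in KO CM, 27.9 ± 8.22 CPM in WT CM and 38.2 ± 2.41 CPM in regular cells. It fell by 1.69 ± 0.25 in KO CM over regular and by 1.22 ± 0.26 in KO CM over WT CM (adjusted p = 2.43e-07 and 0.000840), while WT CM over regular stood at -0.47 ± 0.19 (adjusted p = 0.0522).

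For scale, the 20 tested adipocyte markers other than Slc2a4 were all lower in KO CM than in regular cells, 18 of 20 were lower in WT CM than in regular cells and 19 of 20 were lower in KO CM than in WT CM, with median log2 fold changes of -1.92, -0.70 and -1.01. Slc2a4 at -3.11, -1.33 and -1.79 lay below each of these medians, and Irs2 at -0.57, -0.53 and -0.04 above each. Irs1 at -1.75, -0.85 and -0.90 lay below the median in WT CM over regular and above it in the other comparisons.

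**Figure D5:**
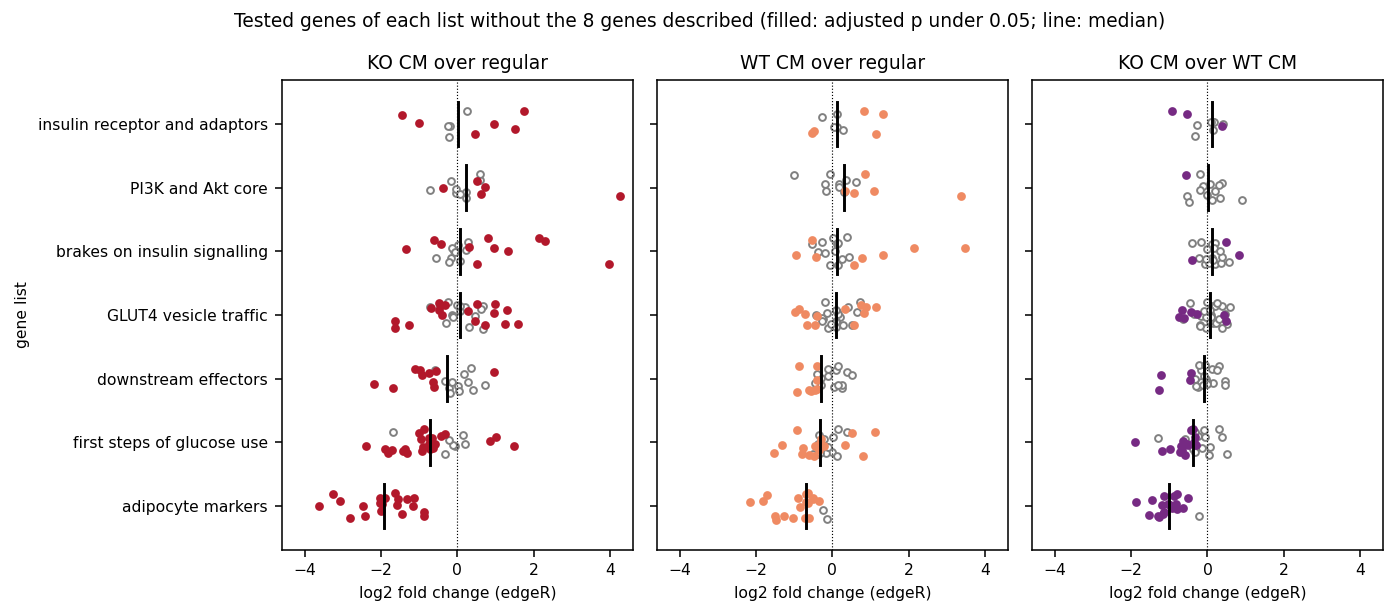
Log2 fold changes (horizontal axis) of the tested genes of 7 lists, without the 8 genes described, in KO CM over regular, WT CM over regular and KO CM over WT CM; filled points have an adjusted p under 0.05 and vertical lines are list medians. Receptor, PI3K, brake and vesicle lists scatter around 0, and the adipocyte markers lie lowest, with medians of -1.92, -0.70 and -1.01.

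The genes whose level ran most like each of the 7 over the 12 libraries were found by Pearson's r of log2 CPM, a description in which all points share the 4 groups. For Slc2a4 they were Fam83a, S100a1 and Coq8a (r = 0.997, 0.997 and 0.996), for Irs2 Lpl, Pex11a and Nupr1 (0.995, 0.995 and 0.994), and for Tbc1d4 Rab3d, Ppp1r3d and Ltbp3 (0.982, 0.976 and 0.973). For Irs1 they were Fech, Psma1 and Ndufa1 (0.974, 0.967 and 0.966), for Pik3r1 Nudt7, Cd1d1 and Oxct1 (0.962, 0.953 and 0.951), for Slc2a1 Asnsd1, Dazap2 and Chst1 (0.933, 0.921 and 0.907), and for Insr Arel1, Angpt1 and Ap1g1 (0.897, 0.879 and 0.859). Among the 7 themselves, Slc2a4 was closest to Irs2 (r = 0.966) and Tbc1d4 (0.929), and Slc2a1 furthest from Irs1 (r = -0.079).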

How the data were processed

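Gene-level values come from 12 MARS-seq libraries. Per the labels' protocols, each started from 30 ng of RNA, with barcodes added at reverse transcription before pooling and T7 amplification. The tools named in the submitters' processing notes are HTSeq, cutadapt and DESeq2 (no versions), with build mm10; aligner, annotation and strand use are not given in the sources used here. Raw UMI counts, which the authors left unnormalized, were read from the table they deposited, per its file headers. It also has the authors' deposited log2 fold changes, reference over tested in sign, and their p-values, of which 1 adjusted p-value is quoted. A further 24 columns of normalized values per sample were not used. Every gene reaches at least 6 counts in some library.

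Tests were run with edgeR 4.0.16 in R 4.3.3 (filterByExpr, TMM, robust quasi-likelihood fit of all 12 libraries with 1 coefficient per group, limma 3.58.1 loaded), with Benjamini-Hochberg adjustment over 9378 genes; the common biological coefficient of variation was 9.38%. SE was derived from the F statistic. Ratios per library used a pseudocount of 0.5 and an exact permutation test. The steps were tested on simulated counts. Alternatives were total counts, RLE, no filter, DESeq2 1.42.0, only the groups compared, a replicate block, equal depth and leaving out each library.

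The 8 genes, the lists and the tests were chosen with earlier results of these data known. Besides the 8, the text names at most 3 called genes per list, direction and comparison by size of log2 fold change, and the 3 genes closest in pattern to each of the 7 tested; exceptions are said to be so. A gene that this rule names is not reported here, though list counts include it. Intervals on counts cover counting error only. Promoters were matched by symbol in a RefSeq table, which held 6 of the 8 genes.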

Additional observations from a re-analysis of the deposited data

How the results depend on the processing

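Of 795 values of the 7 tested genes recomputed under alternatives, 756 kept their direction and their side of the threshold, 20 lost a call, 11 gained one and 8 changed sign. Those that changed sign were all uncalled: Slc2a1 in regular over undifferentiated cells with total counts (-0.0179), Insr in KO CM over undifferentiated cells without KO CM replicate 1 (-0.011), Insr in KO CM over regular without KO CM replicate 3 (0.089) or regular replicate 3 (0.089), Irs2 in KO CM over WT CM without KO CM replicate 3 (0.013), Slc2a1 in KO CM over WT CM without WT CM replicate 1 (0.026) or 2 (0.028), and Irs1 in KO CM over undifferentiated cells without undifferentiated replicate 1 (0.076). Over all genes, KO CM against WT CM gave 1171 calls, 772 with DESeq2 and 756 to 1200 when 1 library was left out; of the 7 genes 4 were called, and 1 to 5 when 1 library was left out, the 1 being without KO CM replicate 3. The cause was not tested. With 1 library left out, the values that changed sign ranged from -1.33 to 0.089 for Insr in KO CM over regular, -0.011 to 1.47 for Insr in KO CM over undifferentiated cells, -0.14 to 0.013 for Irs2 and -0.21 to 0.028 for Slc2a1 in KO CM over WT CM, and -0.33 to 0.076 for Irs1 in KO CM over undifferentiated cells. Of 4371 values of other named genes, 188 lost their call and 0 changed sign. Most of these genes were picked as called and of large log2 fold change, so a change of sign was unlikely. These counts are therefore not comparable with those of the 7 tested genes.

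Total counts in place of TMM moved the median of all tested genes by -0.11 in KO CM over regular, -0.16 in regular over undifferentiated, -0.28 in KO CM over undifferentiated and -0.20 in WT CM over undifferentiated cells. The share of calls that were higher was then 40.7% against 51.3% with TMM in KO CM over regular, 30.3% against 47.0% in KO CM over WT CM, 40.3% against 51.3% in regular over undifferentiated, 33.1% against 59.5% in KO CM over undifferentiated and 38.8% against 57.4% in WT CM over undifferentiated cells. The cause was not tested.

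Replicate numbers did not pair the libraries: of 18 pairs of same-numbered libraries, 0 had deviations correlated above 0.1 (range -0.066 to 0.055), and 4 of 12 libraries correlated best with their own number. With a replicate block, KO CM against WT CM gave 1217 calls, and the counts of the 7 genes called were as without it. Depth limits Insr and Akt2 most: Insr held 12 UMIs in undifferentiated cells and 14 in KO CM, and Akt2 held 5 in KO CM.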

Other observations

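The enzymes that first use the glucose taken up were counted as a list of 30 tested genes. Of these, 3 were higher and 20 lower in KO CM over regular, 4 higher and 12 lower in WT CM over regular, and 0 higher and 15 lower in KO CM over WT CM, with medians of -0.72, -0.31 and -0.38; DESeq2 called 9 in the last comparison, all lower. Of all tested genes, 22.2% were higher and 21% lower in the first of these comparisons, 17.2% and 15.4% in the second and 5.86% and 6.62% in the third. In regular over undifferentiated cells, 23 of them were higher and 3 lower, where 29.6% of all tested genes were higher and 28% lower. The hexokinases, which trap glucose in the cell, parted: Hk1 averaged 161 ± 8.74 CPM in KO CM, 155 ± 10.2 CPM in WT CM, 89.5 ± 2.48 CPM in regular and 136 ± 14.5 CPM in undifferentiated cells, whereas Hk2, the insulin-responsive form, named after its values were seen, averaged 28.1 ± 9.27, 44.1 ± 7.54, 75.1 ± 3.04 and 13.8 ± 2.85 CPM in the same order of groups. Hk1 rose by 0.86 ± 0.11 in KO CM and by 0.79 ± 0.10 in WT CM over regular (adjusted p = 9.25e-09 and 3.53e-08). Hk2 fell by 1.43 ± 0.19 in KO CM and by 0.78 ± 0.16 in WT CM over regular (adjusted p = 2.72e-08 and 0.000118), and its difference between KO CM and WT CM (-0.64 ± 0.21, adjusted p = 0.0308) was lost without KO CM replicate 3 (-0.44, adjusted p = 0.282) and in 5 other alternatives.

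Other genes of the list that the rule names moved in both directions. Pgm2, a phosphoglucomutase gene, averaged 34.1 ± 6.22 CPM in KO CM, 25.7 ± 4.41 CPM in WT CM and 10.7 ± 5.25 CPM in regular cells, a rise of 1.49 ± 0.25 in KO CM and of 1.11 ± 0.24 in WT CM over regular (adjusted p = 3.48e-06 and 0.000297). Pygb, a glycogen phosphorylase, averaged 95.8 ± 8.53 CPM in KO CM, 123 ± 5.85 CPM in WT CM and 353 ± 12.3 CPM in regular cells, a fall of 1.88 ± 0.10 in KO CM and of 1.52 ± 0.09 in WT CM over regular (adjusted p = 2.02e-20 and 3.46e-18). Ppp1r3c, which targets protein phosphatase 1 to glycogen, averaged 75.6 ± 10.2 CPM in WT CM and 143 ± 12.3 CPM in regular cells, a fall of 0.93 ± 0.13 (adjusted p = 4.51e-08). Gbe1, the glycogen branching enzyme, averaged 30.4 ± 9.84 CPM in KO CM and 61.4 ± 9.92 CPM in WT CM, a fall of 0.98 ± 0.20 (adjusted p = 0.000386). The adipocyte markers fell in the same comparisons, and their part in these values was not tested.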
